A study of Danio rerio with 18 samples.

Results

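Kinesins, cytoplasmic dynein and dynactin are the microtubule motor genes described here, taken from RNA sequencing of zebrafish mature eggs and FG follicles. Members were the rows of the deposited gene table whose symbol begins with kif and a digit, kifc, klc and a digit, dync, dynll, dynlt, dynlrb or dctn, which gave 69 of 25432 rows. There were 45 kinesins, 3 kinesin light chains, the kinesin binding protein kif1bp, 7 dynein heavy, intermediate and light intermediate chains, 7 dynein light chains and 6 dynactin subunits. Of these, 41 had 1 FPKM or more in 4 or more of the 18 libraries and were tested, and 28 did not. FPKM, fragments scaled to gene model length and to mapped fragments, is a level per length. The least detected members that were tested were dync1h1 and dync2li1, with 5 libraries at 1 FPKM or more, and kif26ab, with 6. Just below the filter stood kif17, with 2 such libraries, and dync1i2b, with 1. The symbol dynlrb1 stands on 2 rows, and the name here means the tested one (ENSDARG00000021582).

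Kinesins walk mostly towards the plus ends of microtubules, and the kinesin-14 members kifc1 and kifc3 towards the minus ends. Cytoplasmic dynein carries cargo towards the minus ends and needs dynactin, a complex that joins it to cargo and raises its run length. In oocytes and eggs these motors build the meiotic spindle and move organelles and RNA, and in zebrafish the kinesin-1 heavy chain kif5ba takes part in gathering maternal determinants in the oocyte and early embryo.

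The study set sinhcaf mutants (sinhcaf-/-) against wild type. Mature eggs came from 5 mutant and 5 wild-type libraries and FG follicles from 4 mutant and 4 wild-type libraries, each a pool from a single female. The labels give ovary as the tissue and do not spell out FG, the mutant allele, the age or the strain, and all libraries were poly(A) libraries of RNA with an integrity number of at least 7. Whether eggs and follicles of a genotype came from the same females is not stated.

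The level of sinhcaf was 0.248 ± 0.0651 FPKM in mutant eggs and 0.726 ± 0.509 FPKM in wild-type eggs (SD, n = 5 each), with no overlap and an adjusted p of 0.210 by limma. It was 0.607 ± 0.315 FPKM in mutant FG follicles and 2.14 ± 1.12 FPKM in wild-type FG follicles (SD, n = 4 each), with an overlap and an adjusted p of 0.0115 by limma. Read depth is unknown, since the files hold no counts. All 11 oocyte markers were detected in every group. Between 6977 and 7917 genes reached 1 FPKM in mutant eggs and between 6929 and 7701 in wild-type eggs, against 9854 to 10120 in mutant FG follicles and 9722 to 9866 in wild-type FG follicles. Egg libraries 4 and 5 of both genotypes stood apart, with 7914 and 7917 such genes in mutants and 7701 and 7682 in wild type, above all egg libraries 1 to 3. Mitochondrial genes took 37.1% to 51.0% of the summed FPKM in mutant eggs and 33.1% to 37.9% in wild-type eggs, and 7.64% to 13.8% in mutant FG follicles and 14.0% to 17.7% in wild-type FG follicles.

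The levels of the tested motor genes differed widely. The spindle kinesin kif22 was highest in eggs, with 208 ± 21.5 FPKM in mutant eggs and 249.9 ± 19.5 FPKM in wild-type eggs (SD, n = 5 each). The dynein light chain dynll2b was highest in follicles, with 69.3 ± 11.8 FPKM in mutant FG follicles and 84.1 ± 30.1 FPKM in wild-type FG follicles (SD, n = 4 each). Summed over all members, the level was 722 ± 35.6 FPKM in mutant eggs and 789 ± 21.9 FPKM in wild-type eggs, or 0.174% and 0.203% of each library's summed FPKM. In mutant FG follicles the sum was 585 ± 23.9 FPKM and in wild-type FG follicles 657 ± 21.7 FPKM, or 0.199% and 0.202%. The library sums behind these shares include the mitochondrial genes, which took more in eggs than in FG follicles and most in mutant eggs. So the shares do not compare the groups on nuclear genes alone. Of the 69 members, 31 to 36 reached 1 FPKM in each mutant egg library and 31 to 36 in each wild-type egg library, against 37 to 39 in mutant FG follicles and 39 to 41 in wild-type FG follicles.

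**Figure D1:**
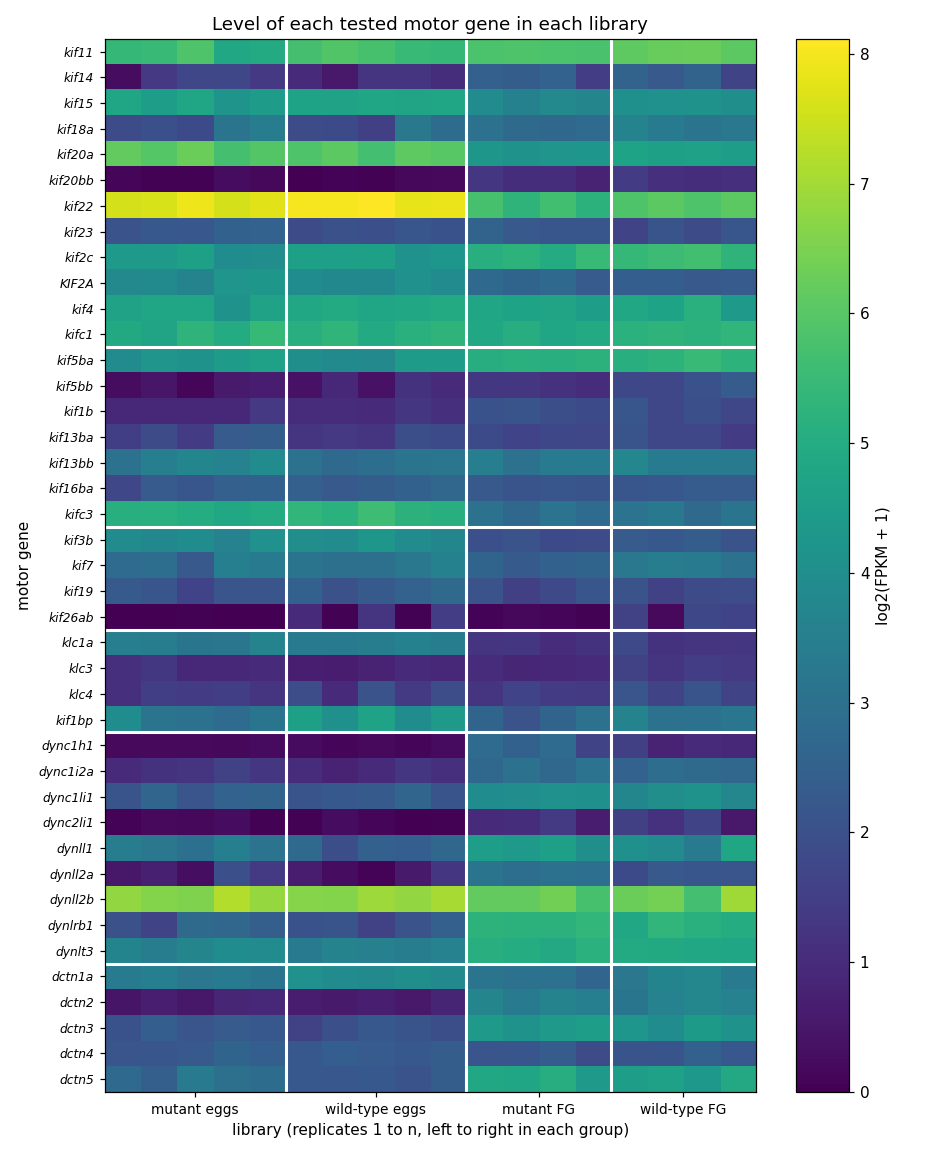
Level of each tested motor gene (rows, by role) in each library (columns, grouped as mutant eggs, wild-type eggs, mutant FG follicles and wild-type FG follicles), as log2(FPKM + 1) from dark (0) to bright. The row of dynll2b is bright in every group and that of kif22 is the brightest in eggs. The lower block of dynein and dynactin rows is mostly darker in eggs than in FG follicles.

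The 28 members that were not tested stayed at or below 1.50 FPKM in every library. They include the kinesin-1 heavy chains kif5aa, kif5ab and kif5c, the kinesin-3 members kif1aa, kif1ab and kif1c, the kinesin-2 motors kif3a, kif3ca, kif3cb and kif17, the dynactin copy dctn1b and the dynein chains dync1i1 and dync1li2. The homodimeric kinesin-2 kif17, picked out after its values were seen, had 0.0491, 0.737, 0.109, 1.50 and 1.18 FPKM in mutant eggs, against 0.0132, 0.0580, 0.0394, 0.186 and 0.0875 FPKM in wild-type eggs. Mutant egg libraries 2, 4 and 5 lay above all wild-type egg libraries and the other two lay within the wild-type range, and no test was made.

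In eggs, 5 of the 41 tested motor genes differed between mutants and wild type at an adjusted p under 0.05, 3 higher and 2 lower, which is 12.2% of the members against 15.1% of all 10547 tested genes (7.35% higher and 7.71% lower). Higher in mutants were the dynactin subunit dctn5, the dynein light chain dynll1 and the kinesin-3 kif13bb, and lower were kif1bp and the dynactin subunit dctn1a. The median log2 change of the members was 0.03, against 0.04 over all tested genes. The share of members called was near that of all tested genes, and the 5 changes ran from -1.11 to 0.78 on the log2(FPKM + 1) scale. In a bulk pool, fewer cells of a type and less RNA per cell cannot be told apart. The groups did not overlap for 2 members that were higher and 2 that were lower, against 4.7% and 6.37% of all tested genes (11.1% in all). Under median-of-ratios scaling the split of calls became 3 higher and 6 lower, and that over all 10547 tested genes 755 higher and 1202 lower. With egg libraries 1 to 3 alone the log2 changes were 0.63 for dctn5, 0.81 for dynll1 and 0.52 for kif13bb, and with libraries 4 and 5 alone 0.69, 0.73 and 0.59, with none of the 3 called in either subset of fewer libraries. The changes of kif1bp (-1.07 and -1.16) and dctn1a (-0.60 and -0.71) were called in both subsets. The granulosa markers summed to 98.9 to 206 FPKM in mutant eggs and 89.6 to 124 FPKM in wild-type eggs, nearly all of it from cyp11a1, at a mean of 85.8 FPKM in mutant eggs and 30.8 FPKM in wild-type eggs, and from cyp17a1. The means of cyp17a1 were 69.9 FPKM in mutant eggs and 75.8 FPKM in wild-type eggs, above its 44.7 and 52.7 FPKM in FG follicles. Of the other listed markers, foxl2a, amh, fshr and gsdf were near 0 in both egg groups, and inha averaged 0.321 and 0.0652 FPKM. So this sum is no measure of granulosa RNA in eggs. The leukocyte markers summed to 5.61 to 11.5 FPKM in mutant eggs and 1.16 to 2.34 FPKM in wild-type eggs, and cxcr4b alone averaged 8.34 FPKM in mutant eggs and 1.15 FPKM in wild-type eggs. The defining leukocyte markers ptprc, lcp1, mpx and coro1a were near 0 in both and had lower means in mutant eggs, such as 0.0798 FPKM for mpx in mutant eggs and 0.266 FPKM in wild-type eggs. The part of these markers in the changes was not tested.

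In FG follicles, 9 of the 41 members differed, 2 higher and 7 lower, which is 22.0% of the members against 23.5% of all tested genes. In the mutant follicles the dynein heavy chain dync1h1 and the dynein light chain dynll2a were higher, and 5 kinesins (kif26ab, kif5bb, kif7, kif22 and kif20a), the kinesin light chain klc3 and dctn1a were lower. Over all tested genes 10.1% were called higher and 13.4% lower, against 4.88% and 17.1% of the members. These shares of the members include dync1h1, kif26ab and klc3, which passed the filter on low values through groups where they were high. The groups did not overlap for 3 members that were higher and 13 that were lower, while of all tested genes 29% did not overlap, 10.7% with mutants higher and 18.2% with mutants lower. The median log2 change of the members was -0.13, against -0.05 over all tested genes. Of the 9 calls, that of dync1h1 alone held under each of 3 other scalings, and the split became 1 higher and 2 lower under median-of-ratios scaling and 1 higher and 3 lower as TPM (values rescaled to the same sum in every library). Over all tested genes 1061 higher and 1414 lower became 881 and 859 under median-of-ratios scaling, and 1175 and 785 as TPM. Granulosa markers summed to 134 to 266 FPKM in mutant FG follicles and 103 to 130 FPKM in wild-type FG follicles. Most of this came from cyp11a1, at means of 92.6 FPKM (mutant) and 52.6 FPKM (wild type), and cyp17a1, at 44.7 and 52.7 FPKM. Both also gave nearly all of the granulosa sum in eggs. The means of inha were 27.1 and 4.22 FPKM, while foxl2a, amh, cyp19a1a and fshr were near 0 in both genotypes. Of 8 tested granulosa markers, 2 were called higher in mutant FG follicles and 0 lower. Leukocyte markers, mostly cd74a and cxcr4b, summed to 2.39 to 13.0 FPKM and 1.47 to 2.82 FPKM in the mutant and wild-type groups. Theca and stroma markers summed to 16.4 to 61.4 FPKM and 23.6 to 70.1 FPKM, in the same order. The part of all these markers in the changes was not tested.

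**Figure D2:**
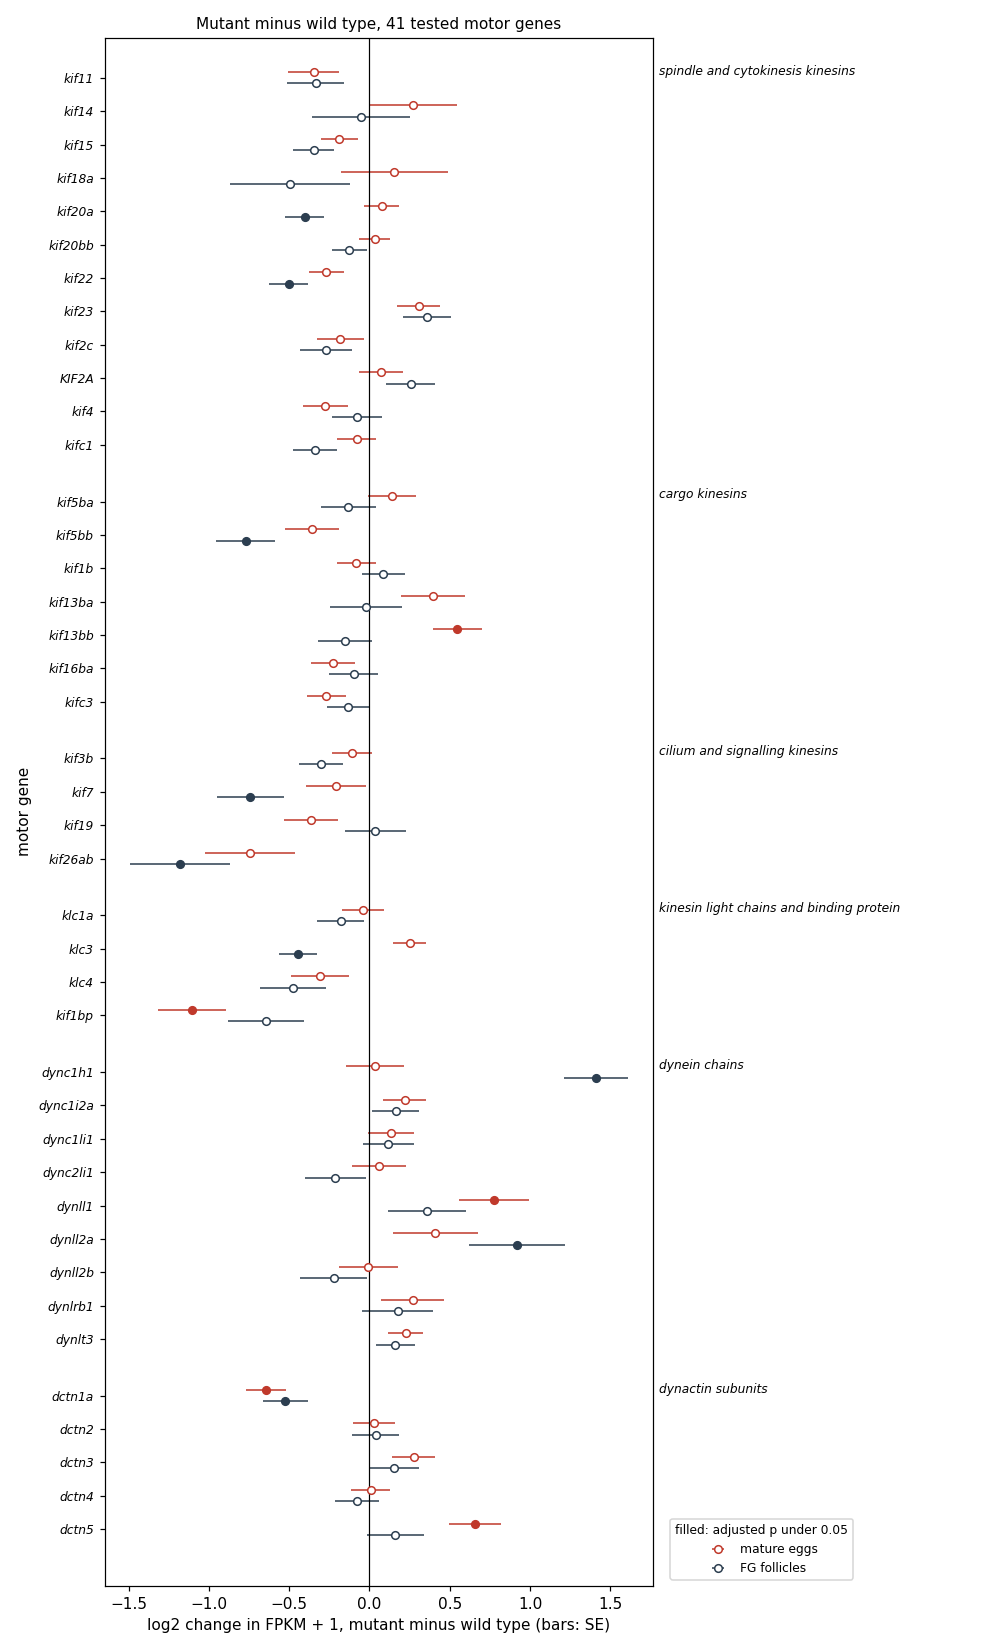
Change of each of the 41 tested motor genes, mutant minus wild type, on the log2(FPKM + 1) scale (horizontal axis), with mature eggs in red above FG follicles in blue for each gene. Points are limma estimates, bars their SE and filled points the calls at an adjusted p under 0.05. Filled points to the left are kinesins, klc3, kif1bp and dctn1a, and filled points to the right are kif13bb, dctn5 and the dynein chains dync1h1, dynll1 and dynll2a.

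Among the 12 tested kinesins of the spindle and of cytokinesis, none was called in eggs at an adjusted p under 0.05 by limma, 3 passed an unadjusted p under 0.05 (kif11, kif22 and kif23), and 2 were lower in mutant FG follicles. Those 2 are 16.7% of the 12, against 13.4% of all tested genes called lower there. In eggs 15.1% of all tested genes were called. With the replicate number as a block, kif11 was called lower in mutant eggs at an unchanged log2 change of -0.35 (SE 0.11, adjusted p = 0.0429, against 0.149 without the block). Deviations of egg libraries of the same number correlated at 0.112 to 0.447 between genotypes. For mutant egg libraries 1, 2 and 5 a wild-type egg library of another number was the closer one. The first of the follicle calls was kif20a (ENSDARG00000044491), whose product in mammalian cells brings the chromosomal passenger complex to the anaphase midzone. It had 18.5, 16.5, 17.7 and 18.2 FPKM in mutant FG follicles, against 25.1, 23.7, 24.1 and 22.2 FPKM in wild-type FG follicles. Every mutant library lay below every wild-type library, by a log2 change of -0.40 (SE 0.12, adjusted p = 0.0211). In eggs it had 64.7 ± 9.96 FPKM in the mutants and 61.1 ± 6.74 FPKM in the wild type (SD, n = 5 each), which overlapped. The call was lost without mutant FG library 2, at -0.37, and under each of the 3 other scalings.

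The second was the chromokinesin kif22 (ENSDARG00000102624), known for pushing chromosome arms towards the spindle equator. It had 52.6, 37.8, 49.3 and 36.3 FPKM in mutant FG follicles, against 58.6, 66.2, 57.4 and 66.2 FPKM in wild-type FG follicles. The groups did not overlap, and the log2 change was -0.50 (SE 0.12, adjusted p = 0.00596). In eggs it had 191, 196, 242, 193 and 216 FPKM in mutants, against 253, 257, 277, 227 and 236 FPKM in wild type. All mutant egg libraries but library 3 lay below all wild-type egg libraries and library 3 lay among them, and the log2 change of -0.27 had an adjusted p of 0.111.

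The other spindle kinesins gave values without calls between genotypes. In FG follicles kif11, which slides spindle microtubules apart, averaged 55.9 ± 1.87 FPKM in the mutants and 70.9 ± 4.45 FPKM in the wild type (SD, n = 4 each). Also with no overlap and lower in every mutant follicle library were kif15, kifc1 and kif18a, and kif23, a part of the centralspindlin complex of the midzone, was higher in every mutant follicle library, at 3.99 ± 0.716 FPKM against 2.90 ± 0.615 FPKM in wild type. The median log2 change of the 12 was -0.30 in FG follicles, against -0.05 over all tested genes, and 10 of the 12 lay below the median gene. A scaling moves the median gene along with the members, so this count could hardly change with scaling. The 2 lower calls among the 12 became 0 as TPM and 0 under median-of-ratios scaling. In FG follicles 4 markers of cycling cells (mki67, top2a, cdk1 and pcna) summed to 261 to 283 FPKM in mutants and 304 to 398 FPKM in wild type, with 1 called higher and 1 called lower. The same 4 markers summed to 247 to 337 FPKM in mutant eggs and 318 to 340 FPKM in wild-type eggs. Their part in the kinesin values was not tested.

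Of the 7 tested cargo kinesins, 1 was higher in mutant eggs and 1 was lower in mutant FG follicles, and with the replicate block a second, kif13ba, was called higher in mutant eggs, at 0.40 (SE 0.11, adjusted p = 0.0316, against 0.203 without the block). Without the block each count is 14.3% of the 7. Of all tested genes 7.35% were higher in mutant eggs and 13.4% lower in mutant FG follicles. The kinesin-1 heavy chain copy kif5bb (ENSDARG00000103394) had 1.48, 1.42, 1.25 and 1.04 FPKM in mutant FG follicles, against 2.39, 2.28, 3.11 and 4.15 FPKM in wild-type FG follicles. All mutant follicle libraries were lower than all wild-type follicle libraries, with a log2 change of -0.77 (SE 0.19, adjusted p = 0.00558). In eggs it was 0.346 ± 0.187 FPKM in the mutants and 0.756 ± 0.442 FPKM in the wild type (SD, n = 5 each), with overlap and an adjusted p of 0.165. The other copy, kif5ba, was the more abundant, at 34.2 ± 1.86 FPKM in mutant FG follicles and 37.6 ± 3.75 FPKM in wild-type FG follicles (SD, n = 4 each), and its log2 change of -0.13 was not called. How reads shared by the kif5ba and kif5bb copies were counted is not stated, so the division between them is uncertain.

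The kinesin-3 copy kif13bb (ENSDARG00000073859), whose mammalian counterpart moves membrane-bound cargo to the cell periphery, was the cargo kinesin called in eggs. It had 7.28, 10.2, 12.2, 11.1 and 14.0 FPKM in mutant eggs, against 7.12, 5.79, 6.59, 7.75 and 8.13 FPKM in wild-type eggs. All mutant libraries but library 1 lay above all wild-type libraries and library 1 lay among them, and the log2 change was 0.55 (SE 0.15, adjusted p = 0.0190). In FG follicles it was 8.99 ± 1.25 FPKM in the mutants and 10.1 ± 1.69 FPKM in the wild type (SD, n = 4 each), and the log2 change of -0.15 was not called. The egg call was lost without mutant egg library 5, at 0.46, and without wild-type egg library 2, at 0.49, and as TPM, at 0.49.

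Of the 4 tested kinesins of cilia and signalling, 2 were lower in mutant FG follicles, or 50% against 13.4% of all tested genes. The 2 include kif26ab, which passed the filter on low values through wild-type libraries alone. The other of the 2, kif7 (ENSDARG00000033099), works at the tip of the primary cilium in Hedgehog signalling in mouse and zebrafish. It had 5.13, 3.91, 4.75 and 5.10 FPKM in mutant FG follicles, against 8.59, 9.58, 9.08 and 7.10 FPKM in wild-type FG follicles. The groups were apart, with a log2 change of -0.74 (SE 0.21, adjusted p = 0.0143), and in eggs the values of 7.20 ± 2.54 FPKM in the mutants and 8.19 ± 1.60 FPKM in the wild type overlapped (SD, n = 5 each). Markers of multiciliated cells were at or near 0, with sums of 0.252 to 0.827 FPKM in mutant FG follicles and 0.153 to 0.285 FPKM in wild-type FG follicles.

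The gene kif26ab (ENSDARG00000015016) is a copy of an atypical kinesin that in mouse acts in growth factor signalling and has lost its motor activity. It had 0.0494, 0.138, 0.0948 and 0.0347 FPKM in mutant FG follicles, against 2.02, 0.141, 2.37 and 2.08 FPKM in wild-type FG follicles. Wild-type library 2 stood at the mutant level, just above the highest mutant library, and the other three were well above it. In eggs it had 0, 0, 0.0268, 0.0216 and 0.0155 FPKM in mutants, against 1.02, 0.0426, 1.36, 0.0337 and 1.76 FPKM in wild type. Wild-type egg libraries 2 and 4 stood close to the mutant libraries and the other three far above, so that within wild type the gene was either near 0 or above 1 FPKM. The log2 change was -1.18 in FG follicles (SE 0.31, adjusted p = 0.0106) and -0.75 in eggs (SE 0.28, adjusted p = 0.0823). The gene passed the filter on low values through wild-type libraries alone, so its call is a description and not a count in support.

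The kinesin light chains bind the cargo of kinesin-1. Of 3 tested, klc3 (ENSDARG00000055965) was lower in mutant FG follicles, with 1.06, 0.826, 0.933 and 0.943 FPKM in mutants, against 1.96, 1.31, 1.78 and 1.56 FPKM in wild type. The follicle groups did not overlap, and the log2 change was -0.45 (SE 0.12, adjusted p = 0.00906). Outside wild-type FG follicles, klc3 reached 1 FPKM in fewer than 4 libraries. It passed the filter on low values through that group, so its follicle call is a description and not a count in support. In eggs klc3 had 1.17, 1.47, 0.896, 0.897 and 0.979 FPKM in mutants, against 0.617, 0.574, 0.702, 0.958 and 0.893 FPKM in wild type. There the mutant libraries were mostly the higher ones, with an overlap, and the log2 change of 0.25 was not called (SE 0.10, adjusted p = 0.115). The other light chains, klc1a and klc4, were not called between genotypes in either stage.

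The largest genotype change of a motor gene in eggs was that of kif1bp (ENSDARG00000062053), which is not a motor: in human cells its product binds the motor domains of several kinesins and keeps them off microtubules. It had 14.6, 7.65, 7.36, 6.21 and 7.92 FPKM in mutant eggs, against 23.6, 15.7, 24.5, 14.5 and 19.6 FPKM in wild-type eggs. Mutant libraries 2 to 5 lay far below all wild-type libraries, and mutant library 1 lay just above the lowest wild-type library. The log2 change was -1.11 (SE 0.21, adjusted p = 0.00132), a fold of 0.464 in FPKM + 1 and not in FPKM itself. In FG follicles it had 5.15, 3.25, 5.13 and 7.10 FPKM in mutants, against 11.3, 7.38, 7.20 and 8.14 FPKM in wild type, again with the mutants lower and no overlap, and the log2 change of -0.64 did not pass (SE 0.24, adjusted p = 0.0581). The egg call held under every alternative tried.

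**Figure D3:**
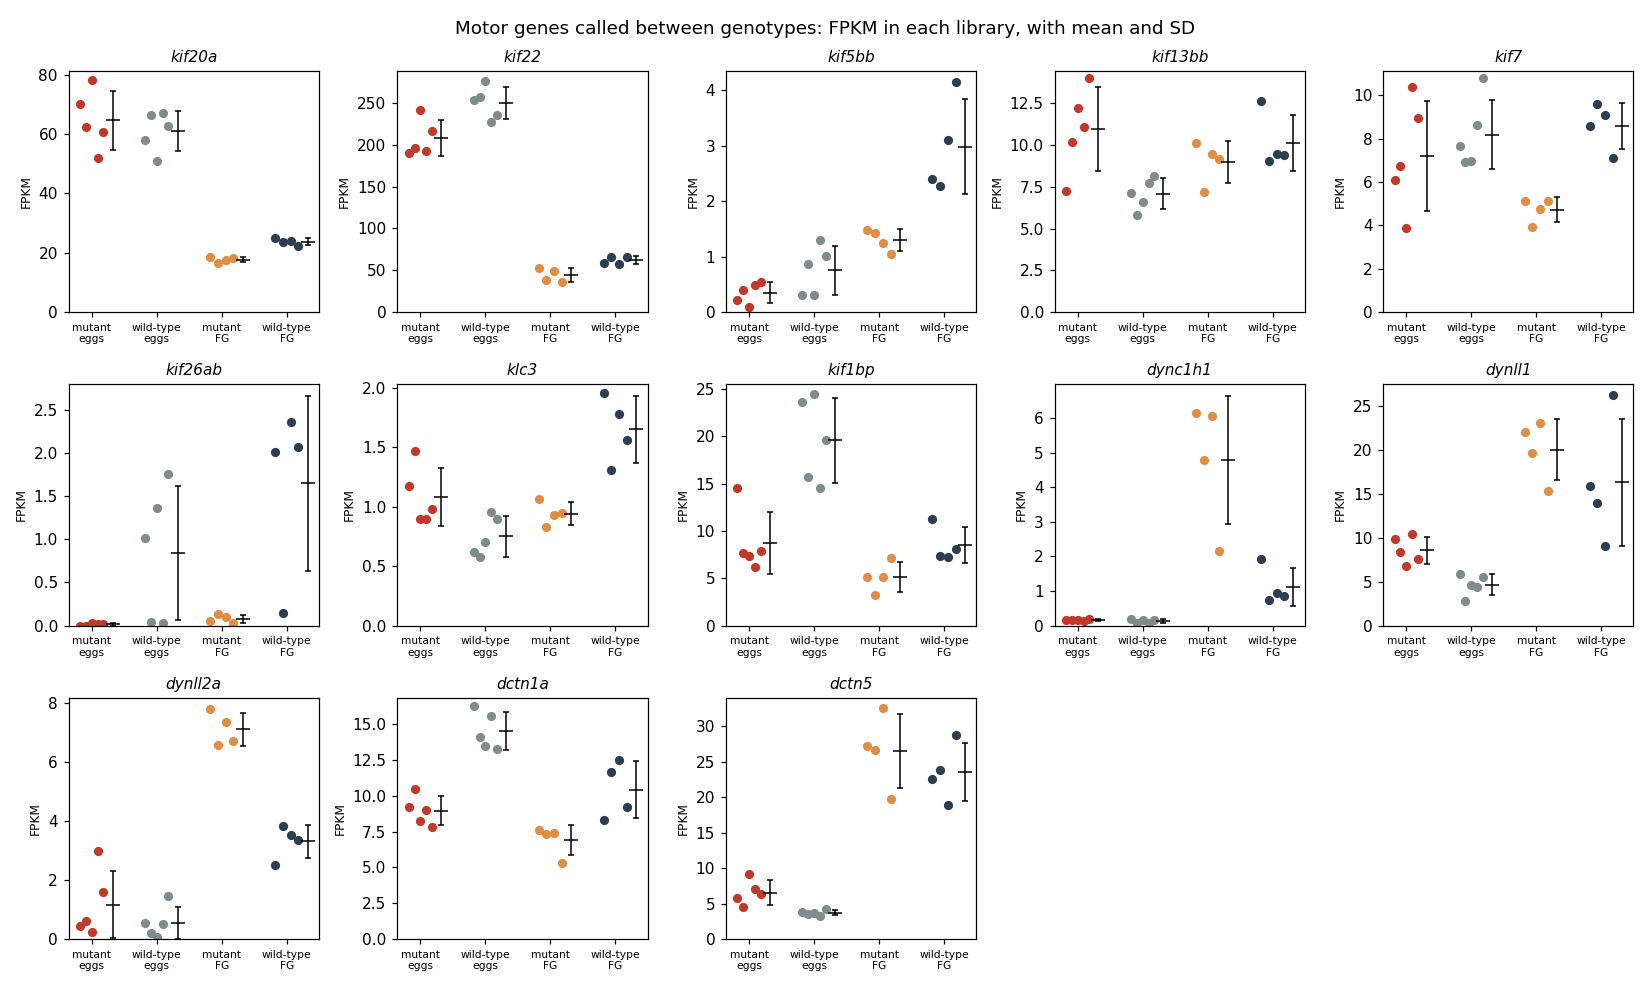
FPKM in each library (points) with the mean and SD (black bars) of the 13 motor genes called between genotypes in eggs or FG follicles, in the order mutant eggs, wild-type eggs, mutant FG follicles and wild-type FG follicles. The 4 mutant FG follicle points of dync1h1 lie above the 4 wild-type points, and kif26ab has wild-type points both near 0 and above 1 FPKM.

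Cytoplasmic dynein was represented by 9 tested chains. Of these, 1 was higher in mutant eggs, 2 were higher in mutant FG follicles and none was lower by limma in either stage, also at an unadjusted p under 0.05. That is 11.1% higher in eggs and 22.2% in FG follicles, against 7.35% and 10.1% of all tested genes. Over all tested genes 7.71% were called lower in eggs and 13.4% in FG follicles. So few chains cannot be set apart from these shares, and 1 of the 2 follicle calls is dync1h1. The ATP-hydrolysing heavy chain of dynein 1, dync1h1 (ENSDARG00000014717), had 6.14, 4.78, 6.07 and 2.15 FPKM in mutant FG follicles, against 1.92, 0.737, 0.946 and 0.866 FPKM in wild-type FG follicles. Every mutant follicle library was above every wild-type one, with the lowest mutant close to the highest wild type. The log2 change was 1.41 (SE 0.20, adjusted p = 5.48e-05), a fold of 2.66 in FPKM + 1 and not in FPKM itself. In eggs it stood at 0.157 ± 0.0229 FPKM in the mutants and 0.132 ± 0.0483 FPKM in the wild type (SD, n = 5 each), near 0 in both. It passed the filter with its 4 mutant FG follicle libraries and 1 wild-type one, so these values too describe the gene rather than add to a count.

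The light chains dynll1, dynll2a and dynll2b encode the LC8 hub protein, which binds dynein and many other partners. In eggs dynll1 (ENSDARG00000058454) had 9.83, 8.37, 6.72, 10.4 and 7.60 FPKM in mutants, against 5.84, 2.83, 4.59, 4.42 and 5.53 FPKM in wild type. All mutant egg libraries were above all wild-type egg libraries, with a log2 change of 0.78 (SE 0.22, adjusted p = 0.0208), while the follicle values of 20.0 ± 3.45 FPKM in the mutants and 16.3 ± 7.27 FPKM in the wild type overlapped (SD, n = 4 each). The dynll1 call was lost without mutant egg library 4, at 0.71, and without wild-type egg library 2, at 0.64.

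The copy dynll2a (ENSDARG00000069790) had 7.80, 6.59, 7.37 and 6.72 FPKM in mutant FG follicles, against 2.52, 3.85, 3.52 and 3.37 FPKM in wild-type FG follicles. The groups were well apart, with a log2 change of 0.92 (SE 0.30, adjusted p = 0.0313). In eggs the range was 0.236 to 2.97 FPKM in mutants and 0.0547 to 1.46 FPKM in wild type. The follicle call was lost without any 1 of mutant FG libraries 1, 2 and 3 and wild-type FG libraries 1, 3 and 4, at log2 changes of 0.82 to 0.95. It was also lost with a pseudocount of 0.1, with no filter on low values, under each of the other scalings and with mutant FG libraries 1 and 3 averaged. The abundant copy dynll2b was not called, with 112 ± 20.3 FPKM in mutant eggs and 112 ± 14.9 FPKM in wild-type eggs (SD, n = 5 each). The remaining dynein chains, dync1i2a, dync1li1, dync2li1, dynlrb1 and dynlt3, had log2 changes between genotypes of 0.06 to 0.27 in eggs and -0.21 to 0.18 in FG follicles, with no call.

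Dynactin had 5 tested subunits, of which dctn1a and dctn5 were called. That is 40% of the 5 in eggs and 20% in FG follicles, against 15.1% and 23.5% of all tested genes. The subunit dctn1a (ENSDARG00000019743) encodes p150Glued, the arm that binds microtubules and the dynein intermediate chain. It had 9.24, 10.4, 8.23, 8.99 and 7.84 FPKM in mutant eggs, against 16.3, 14.1, 13.5, 15.5 and 13.3 FPKM in wild-type eggs. In FG follicles it had 7.63, 7.30, 7.41 and 5.31 FPKM in mutants, against 8.32, 11.6, 12.5 and 9.22 FPKM in wild type. The mutants were below wild type in every library of both stages, and it was the 1 member called in both, with log2 changes of -0.64 in eggs (SE 0.13, adjusted p = 0.00163) and -0.52 in FG follicles (SE 0.14, adjusted p = 0.0118). The egg call held under every alternative tried, and the follicle call was lost as TPM and under median-of-ratios scaling.

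The pointed-end subunit dctn5 (ENSDARG00000003573), which contacts some cargo adaptors, had 5.81, 4.47, 9.19, 7.02 and 6.30 FPKM in mutant eggs, against 3.76, 3.60, 3.67, 3.22 and 4.29 FPKM in wild-type eggs. All mutant egg libraries were higher, the second only slightly above the highest wild type, with a log2 change of 0.66 (SE 0.16, adjusted p = 0.00856). In FG follicles the values of 26.6 ± 5.26 FPKM in the mutants and 23.5 ± 4.10 FPKM in the wild type overlapped (SD, n = 4 each). The shoulder subunits dctn2 and dctn3 and the pointed-end subunit dctn4 were not called between genotypes.

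The change in eggs minus that in FG follicles was tested directly, and 2 of 41 members passed, 1 in each direction, or 4.88% against 6.95% of all tested genes (4.23% higher in eggs and 2.72% lower). For dync1h1 the genotype change was 0.03 in eggs and 1.41 in FG follicles, a difference of -1.38 (SE 0.27, adjusted p = 0.00400). For klc3 it was 0.25 in eggs and -0.45 in FG follicles, a difference of 0.69 (SE 0.16, adjusted p = 0.00958). Both genes passed the filter on low values through the follicle group where they were high. So these differences are a description and not a count in support. For no other member, kif13bb, dctn5 and kif5bb included, did the difference between the stages pass. With the replicate number as a block 3 members passed higher and 1 lower, kif13bb (0.70) and kif18a (0.65) being added, and with egg libraries 4 and 5 alone neither dync1h1, at -1.37, nor klc3, at 0.45, passed.

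Between the stages most motor genes differed, in eggs against FG follicles. In mutants 11 of 41 were higher and 18 lower in eggs, and in wild type 11 were higher and 21 lower. That is 70.7% of members in mutants and 78.0% in wild type, against 81.7% and 82.9% of all tested genes. Over all tested genes 23.4% were higher and 58.3% lower in mutant eggs, and 22.1% higher and 60.8% lower in wild-type eggs. The members dync1h1, dync2li1, dctn2 and kif20bb reached 1 FPKM in FG follicles alone. The members dynll2a, kif5bb and klc3 reached 1 FPKM in fewer than 4 egg libraries. All of these passed the filter on low values through follicles, so their stage changes are a description and not a count in support. The median log2 change of the members was -0.08 in mutants and -0.51 in wild type, against -0.79 and -0.85 over all tested genes. In both genotypes 10 members were called higher and 18 lower, 1 was called in mutants alone and 4 in wild type alone, though whether a stage change differs between genotypes is the same test as above and passed for dync1h1 and klc3. The direction of the whole set depended on scale: under median-of-ratios scaling, which moved the median gene to -0.09 in mutants and -0.10 in wild type, 21 members were higher and 12 lower in mutants, and 21 higher and 11 lower in wild type. Over all 10547 tested genes that scaling gave 4052 higher and 4490 lower in mutants, and 4052 higher and 4488 lower in wild type. So a shift towards higher calls was not particular to the motor genes.

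**Figure D4:**
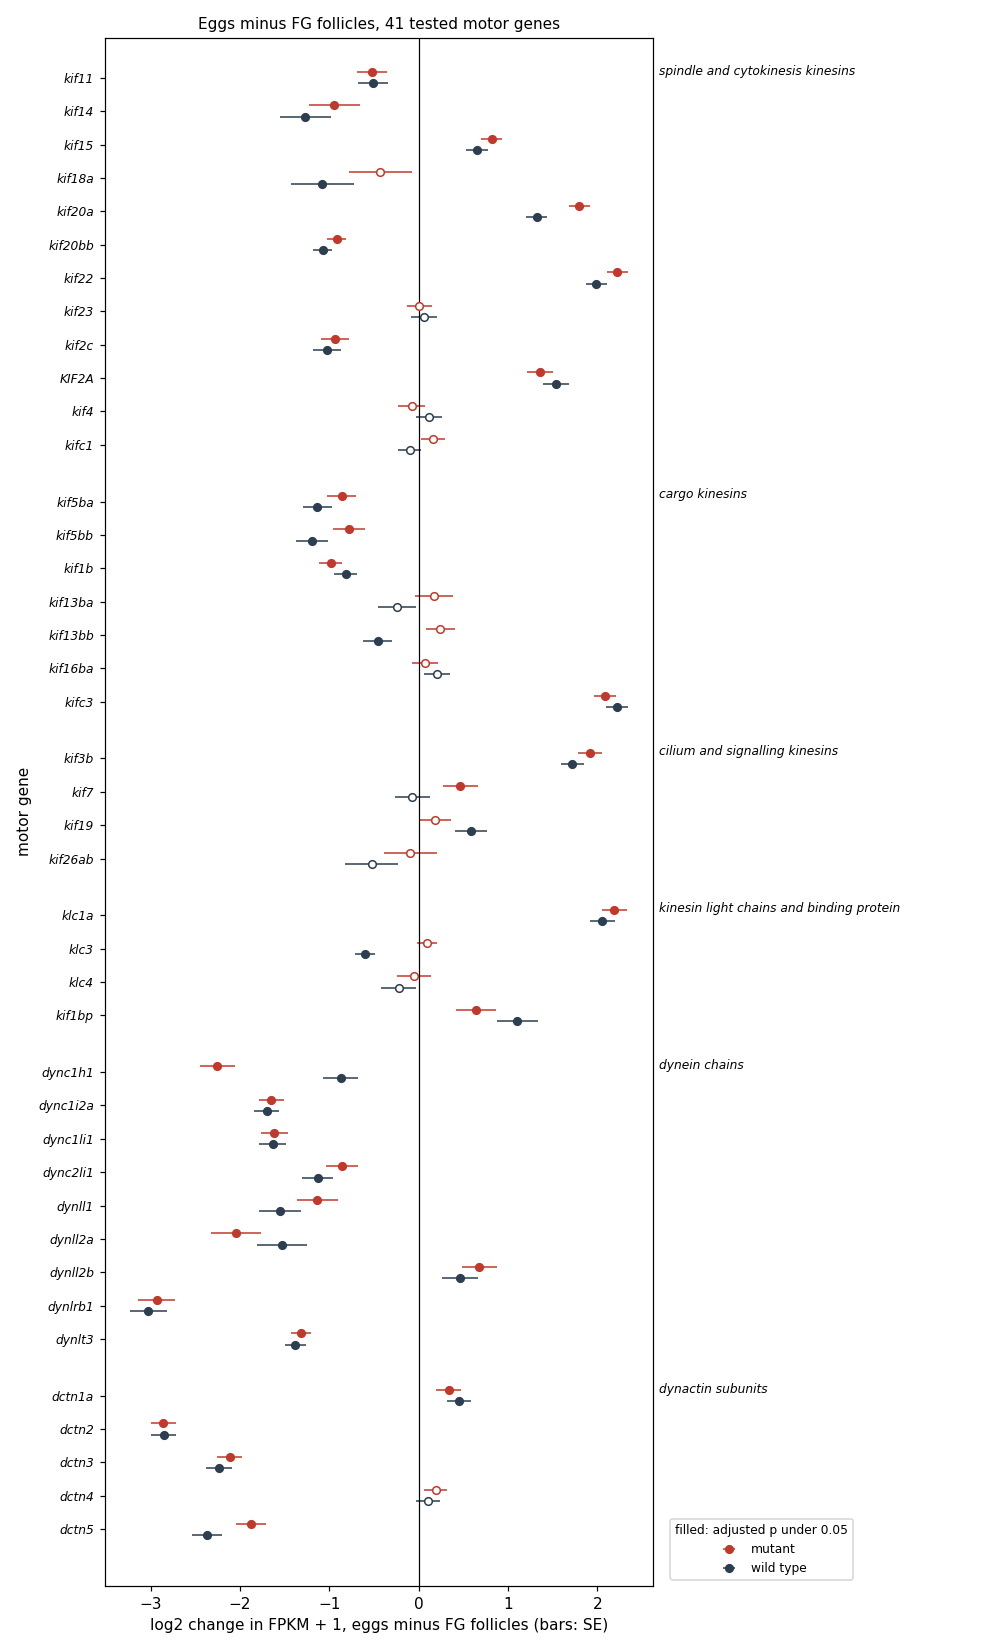
Change of each of the 41 tested motor genes, eggs minus FG follicles, on the log2(FPKM + 1) scale (horizontal axis), with mutants in red above wild type in blue for each gene. Points are limma estimates, bars their SE and filled points the calls at an adjusted p under 0.05. The 8 lower dynein chains and dctn2, dctn3 and dctn5 form a block on the left, with dynll2b and dctn1a to the right of 0.

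Dynein was the role with the most members lower in eggs, 8 of 9 tested chains in each genotype, and 8 signs were negative and 1 positive under every scaling tried. That is 88.9% of the chains, against 58.3% of all tested genes in mutants and 60.8% in wild type. Under median-of-ratios scaling 4490 of all 10547 tested genes were called lower in mutants and 4488 in wild type. Of the 9 chains, 7 were called lower in mutants and 6 in wild type under that scaling, and dynll1 was not called in either, at -0.17 in mutants (adjusted p = 0.516) and -0.50 in wild type (adjusted p = 0.0588). The median log2 change of the 9 was -1.62 in mutants and -1.53 in wild type. Of these chains, dync1h1 and dync2li1 passed the filter on low values through FG follicles alone, with at most 0.185 and 0.198 FPKM in eggs. The light chain dynll2a reached 1 FPKM in fewer than 4 egg libraries, so it too passed through FG follicles. The place of dync1h1, dync2li1 and dynll2a among the lower chains is a description and not a count in support. The roadblock light chain dynlrb1 had 3.07, 2.18, 6.03, 5.43 and 4.51 FPKM in mutant eggs, against 37.2, 36.3, 35.9 and 40.5 FPKM in mutant FG follicles. In wild type it had 3.16, 3.33, 1.98, 3.19 and 4.66 FPKM in eggs, against 27.6, 39.9, 34.5 and 31.2 FPKM in FG follicles. Egg and follicle libraries were far apart in both genotypes, with log2 changes of -2.93 in mutants (SE 0.21, adjusted p = 1.87e-10) and -3.03 in wild type (SE 0.21, adjusted p = 1.20e-10).

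The intermediate chain dync1i2a, which links dynein to dynactin, fell by 1.65 on the log2 scale in mutants and by 1.70 in wild type. Its levels were 1.41 ± 0.359 FPKM in mutant eggs against 6.53 ± 1.05 FPKM in mutant FG follicles, and 1.06 ± 0.259 FPKM in wild-type eggs against 5.70 ± 0.701 FPKM in wild-type FG follicles. The light intermediate chain dync1li1, which binds cargo adaptors, fell by 1.62 in mutants and by 1.63 in wild type. The heavy chain dync1h1 was lower in eggs by a log2 change of -2.25 in mutants (SE 0.19, adjusted p = 2.45e-09) and -0.87 in wild type (SE 0.19, adjusted p = 0.000361). The light chain dynll2a was lower by -2.04 in mutants and -1.53 in wild type. The exception was dynll2b, with 112 ± 20.3 FPKM in mutant eggs against 69.3 ± 11.8 FPKM in mutant FG follicles, a log2 change of 0.68 (SE 0.20, adjusted p = 0.00389), and 0.46 in wild type (SE 0.20, adjusted p = 0.0368). The wild-type call of dynll2b was lost without any 1 of egg libraries 3, 4 and 5 and FG libraries 1, 2 and 3, at 0.25 to 0.48.

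Dynactin subunits were divided, with 3 of 5 lower, 1 higher and 1 not called in each genotype. The 60% lower was near the share of all tested genes, 58.3% in mutants and 60.8% in wild type. The shoulder subunit dctn2, or dynamitin, had 0.364, 0.617, 0.444, 0.833 and 0.901 FPKM in mutant eggs, against 12.0, 9.38, 11.4 and 10.4 FPKM in mutant FG follicles. In wild type it had 0.570, 0.495, 0.610, 0.473 and 0.792 FPKM in eggs, against 7.85, 11.0, 12.4 and 11.0 FPKM in FG follicles. No egg library reached 1 FPKM and all follicle libraries were above 7 FPKM, with log2 changes of -2.86 in mutants (SE 0.14, adjusted p = 8.48e-13) and -2.85 in wild type (SE 0.14, adjusted p = 8.74e-13). So dctn2 passed the filter on low values through FG follicles alone, and its fall is a description and not a count in support. Its neighbour in the shoulder, dctn3, was lower by -2.12 in mutants and -2.24 in wild type, and dctn5 by -1.88 in mutants and -2.37 in wild type. The subunit dctn1a was higher in eggs, by 0.34 in mutants (SE 0.13, adjusted p = 0.0286) and 0.46 in wild type (SE 0.13, adjusted p = 0.00442), and in mutants the sign turned to -0.12 as TPM. The mutant call was also lost without mutant egg library 2, at 0.28, without mutant FG library 4, at 0.23, and with the replicate block, at 0.38.

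Kinesins had members called on both sides, and the larger changes were rises. The log2 changes of the 23 tested kinesins ran from -0.98 to 2.23 in mutants and from -1.27 to 2.22 in wild type. The median over all tested genes was -0.79 in mutants and -0.85 in wild type. The chromokinesin kif22 had 208 ± 21.5 FPKM in mutant eggs against 44.0 ± 8.16 FPKM in mutant FG follicles, and 249.9 ± 19.5 FPKM in wild-type eggs against 62.1 ± 4.76 FPKM in wild-type FG follicles. Its log2 change was 2.23 in mutants (SE 0.12, adjusted p = 2.25e-12) and 1.99 in wild type (SE 0.12, adjusted p = 1.08e-11). The midzone kinesin kif20a was higher in eggs by 1.80 in mutants and 1.32 in the wild type, and the microtubule depolymerase KIF2A, whose row is described as zgc:103670, by 1.36 in mutants and 1.54 in wild type. Of the 12 spindle and cytokinesis kinesins, 4 were higher and 4 lower in mutant eggs, and 4 higher and 5 lower in wild-type eggs, and under median-of-ratios scaling 7 were higher and 1 lower in mutants and 8 higher and 1 lower in wild type. Without that scaling 33.3% of the 12 were lower in mutants and 41.7% in wild type, against 58.3% and 60.8% of all tested genes. With it, 4052 of all 10547 tested genes were higher in each genotype, and 4490 lower in mutants and 4488 in wild type.

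Outside the spindle group, the minus-end motor kifc3 had 33.7, 34.7, 31.5, 27.3 and 30.9 FPKM in mutant eggs, against 7.32, 5.76, 7.62 and 6.13 FPKM in mutant FG follicles. In wild type it had 39.2, 35.3, 47.5, 36.3 and 34.0 FPKM in eggs, against 7.54, 8.70, 5.96 and 7.63 FPKM in FG follicles. Eggs were above follicles in every library, with log2 changes of 2.09 in mutants (SE 0.13, adjusted p = 1.99e-11) and 2.22 in wild type (SE 0.13, adjusted p = 7.86e-12). The kinesin-2 subunit kif3b, which drives transport into cilia, was higher by 1.92 in mutants and 1.72 in wild type, at 13.7 ± 1.82 FPKM in mutant eggs against 2.87 ± 0.296 FPKM in mutant FG follicles. Its motor partner kif3a stayed below 1 FPKM in every library. The light chain klc1a had 9.47 ± 1.46 FPKM in mutant eggs against 1.28 ± 0.162 FPKM in mutant FG follicles, and 9.72 ± 0.651 FPKM in wild-type eggs against 1.62 ± 0.568 FPKM in wild-type FG follicles. Theca and stroma markers summed to 1.43 to 2.42 FPKM in mutant eggs and 16.4 to 61.4 FPKM in mutant FG follicles, and to 3.16 to 4.13 FPKM in wild-type eggs and 23.6 to 70.1 FPKM in wild-type FG follicles, and their part in the stage changes was not tested.

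Motors work with regulators and cargo adaptors, of which 48 were listed, 41 matched by symbol and 2 by synonym. Of their gene rows 32 were tested, hook2 standing on 2 of them. In mutant eggs 4 were higher and 2 lower, or 18.8% against 15.1% of all tested genes. The kinesin and dynein adaptor mapk8ip3 averaged 4.22 ± 2.03 FPKM in mutant eggs and 0.905 ± 0.162 FPKM in wild-type eggs (SD, n = 5 each), with a log2 change of 1.36 (SE 0.24, adjusted p = 0.000588) and no overlap. It reached 1 FPKM in every mutant library but in no wild-type FG library, and its median in wild-type eggs was 0.940 FPKM. So mapk8ip3 passed the filter on low values through mutant libraries, and its call is a description and not a count in support. Also higher in mutant eggs were the lysosomal GTPase arl8ba (0.78), the dynein regulator ndel1a (0.56) and the adaptor spag9a (0.50), and lower were the GTPase arl8a (-0.33) and wu:fb44b02 (-0.49), which RefSeq's table names numa1, a spindle pole partner of dynein. In mutant FG follicles 3 were higher and 5 lower, or 25.0% against 23.5%. The kinesin-1 linker sybu, which in zebrafish eggs takes part in moving the dorsal determinants, averaged 39.3 ± 4.43 FPKM in mutant FG follicles and 102 ± 15.7 FPKM in wild-type FG follicles (SD, n = 4 each), with no overlap and a log2 change of -1.35 (SE 0.45, adjusted p = 0.0354).

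Among the other regulators lower in mutant FG follicles were the mitochondrial adaptor trak2 (log2 change -0.67), wu:fb44b02 (-0.60) and the dynein adaptor bicdl2 (-0.46). Higher there were kidins220a (1.07), the lysosomal adaptor plekhm2 (0.79) and ndel1a (0.78), which was the one regulator called higher in both stages. No wild-type library reached 1 FPKM for kidins220a or ndel1a, and kidins220a reached it in mutant FG follicles alone. Both passed the filter on low values through mutant libraries alone, so their calls are a description and not a count in support. For kidins220a the change in eggs minus that in follicles was -1.003, and for arl8ba it was 1.05, and these 2 of 32 differences passed, 6.25% against 6.95% of all tested genes. On the RefSeq table of GRCz12tu, 40 of the 41 tested members could be placed, and none lay on the chromosome of sinhcaf. Of the tested genes within 5 places of a member called in FG follicles, 24 of 86 were themselves called, or 27.9%, against 19.4% of those beside members not called and 23.5% of all tested genes. In eggs the shares were 13.2% (5 of 38) beside called members and 11.7% beside members not called, against 15.1% of all tested genes, and neither stage's shares were tested.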

How the data were processed

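RNA sequencing of 18 libraries was deposited by the authors as FPKM values for 25432 Ensembl gene rows, and all 18 library columns were used. The submitters' processing notes name GRCz11 as the build and list HTSeq, Cufflinks, HISAT2 and Trimmomatic, without versions or roles. The annotation, the use of strand and the counting of reads shared by similar genes are not given in the sources used here. Libraries were made with a stranded poly(A) kit, per the labels' protocols. Without counts, depth is unknown and errors come from the spread between fish.

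Values were taken as log2(FPKM + 1), which draws the changes of low genes towards 0. The 10547 genes with 1 FPKM or more in 4 or more libraries were tested. A limma 3.58.1 model (lmFit, eBayes with trend, R 4.3.3, data.table version 1.17.8) was fitted with 4 group means and 14 residual degrees of freedom. Its 5 contrasts were mutant minus wild type in each stage, the difference of these, and eggs minus FG follicles in each genotype. A call is a Benjamini-Hochberg adjusted p under 0.05 over all tested genes. The fit was tested on simulated data with independent errors, where changed genes were not taken from the lowest levels. So that test does not cover likeness between libraries or changes of low genes.

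Members, lists and the grouping by role were chosen with earlier results of these data known. Named members were those called in a genotype contrast, the 6 largest called rises and falls of each stage contrast, and the most abundant of each family, with up to 4 regulators per direction. Deviations of egg libraries with the same replicate number correlated across genes between genotypes (0.121, 0.112, 0.359, 0.447 and 0.239), and those of FG follicles did not (-0.07, -0.12, -0.02 and -0.04). The wild-type egg library of the same number was the closest for mutant egg libraries 3 and 4, but not for 1, 2 and 5. A fit with the replicate number as a block was therefore an alternative, beside other pseudocounts, filters, scalings, array weights and leaving out each library. Mutant FG libraries 1 and 3 correlated at 0.994 over the tested genes, against 0.964 to 0.974 for the other pairs of that group. Another alternative averaged these libraries. Wild-type egg libraries 1 and 3 were nearly as alike, at 0.993, and the reason for either likeness was not tested. Neighbouring genes came from RefSeq's GRCz12tu table, by symbol, so no coordinates are given.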

Additional observations from a re-analysis of the deposited data

Results flagged for a closer look

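Of 92 groups of 4 or 5 libraries examined for 23 named motor genes, 5 held a library far from the rest, and chance gives about 1 in 20, or 5%. The dynactin subunit dctn1a stood at 5.31 FPKM in mutant FG library 4, below 7.30 to 7.63 FPKM in the other mutant FG libraries. The kinesin binding protein gene kif1bp stood at 14.6 FPKM in mutant egg library 1, above 6.21 to 7.92 FPKM in the other mutant egg libraries. The atypical kinesin kif26ab stood at 0.141 FPKM in wild-type FG library 2, below 2.02 to 2.37 FPKM in the other wild-type FG libraries. In wild-type FG library 1, kif13bb stood at 12.6 FPKM, above 9.03 to 9.44 FPKM in the other libraries of that group, and klc1a at 2.46 FPKM, above 1.27 to 1.42 FPKM.

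The genotype change differed between stages for the dynein heavy chain dync1h1, by -1.38 on the log2 scale in eggs minus FG follicles, and for the kinesin light chain klc3, by 0.69, each by the limma test of the difference. For dync1h1 the mutant eggs and wild-type eggs were both near 0.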

How the results depend on the processing

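Of 57 calls for named members over the 5 contrasts, 33 held under each alternative that could test them (26 to 29 of the 30) and 24 were lost under at least 1; the egg calls of dctn1a and kif1bp and the FG call of dync1h1 held where tested. The FPKM filter of 5 tested 27 of the 41 members and left dync1h1, klc3, kif5bb and kif26ab untested, so the lower counts it gives below lack these calls without a refit of them. In eggs the 3 higher calls became 6 with array weights and 0 with egg libraries 1 to 3 or 4 and 5 alone (chosen after seeing the data), and the 2 lower calls 6 under median-of-ratios scaling and 4 with array weights. Over all 10547 tested genes the 775 higher calls became 1379 with array weights, 654 with egg libraries 1 to 3 and 609 with 4 and 5. The 813 lower calls over all tested genes became 1202 under median-of-ratios scaling and 1194 with array weights. In FG follicles the 2 higher calls became 1 with a pseudocount of 0.1, no filter, an FPKM filter of 5, TPM, scaling without mitochondrial genes, median-of-ratios scaling or mutant libraries 1 and 3 averaged, and 4 with array weights. Over all tested genes the 1061 higher calls became 651 with that pseudocount, 1175 with TPM, 867 without mitochondrial genes and 881 with median-of-ratios scaling. They became 855 with the averaged libraries, 1938 with array weights, 1894 of 21495 with no filter and 502 of 7092 with the filter of 5. The 7 lower calls became 4 with the filter of 5, 3 with TPM, 2 with median-of-ratios scaling, 12 with only the groups compared and 14 with array weights. Over all tested genes the 1414 lower calls became 1049 of 7092 with the filter of 5, 785 with TPM and 859 with median-of-ratios scaling. They became 1732 with only the groups compared and 2294 with array weights. For the difference between stages, 1 call each way became 0 each way with the filter of 5 and with egg libraries 4 and 5 alone, 0 higher with TPM, 2 higher with egg libraries 1 to 3, and 3 higher with array weights or the replicate block. Over all tested genes 446 higher and 287 lower became 287 and 107 of 7092 with the filter of 5. They became 382 and 124 with egg libraries 4 and 5 alone. The higher calls became 161 with TPM, 598 with egg libraries 1 to 3, 1451 with array weights and 577 with the block. The block ended no egg genotype call and added kif11 and kif13ba there, and kif18a and kif1bp in FG follicles; it ended the calls of kif20a in FG follicles, dctn1a and kif7 between mutant stages and dynll2b between wild-type stages. Between stages, the 11 higher calls became 7 (TPM) and 21 (median-of-ratios) in mutants and 21 (median-of-ratios) in wild type, and the 21 lower calls in wild type 11 (median-of-ratios). Over all tested genes the 2471 higher calls in mutants became 1754 (TPM) and 4052 (median-of-ratios). In wild type the 2335 higher calls became 4052 and the 6411 lower calls 4488 (both median-of-ratios).

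Leaving out each library gave 1 to 3 higher and 2 to 3 lower in eggs, 1 to 2 and 6 to 9 in FG follicles, 1 to 2 and 1 to 1 for the difference, 9 to 12 and 18 to 18 between mutant stages and 10 to 11 and 20 to 22 between wild-type stages. Signs turned for kif20a in eggs (-0.0235 with TPM, -0.0511 with median-of-ratios, -0.20 with egg libraries 4 and 5), kif7 in eggs (0.0010 with egg libraries 4 and 5), dctn1a between mutant stages (-0.12 with TPM), and kif13bb (0.60) and klc3 (0.0168) between wild-type stages with median-of-ratios scaling; the cause was not tested. The difference was not refitted with only the groups compared, which are all 4. Without depth, low members such as kif26ab, dync1h1 in eggs and kif17 have unknown counting error.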

Other observations

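In eggs the spindle kinesin kif18a, which aligns chromosomes and was picked out after its values were seen, divided by replicate number rather than by genotype. It had 2.58, 2.93, 2.52, 7.74 and 9.52 FPKM in mutant eggs, against 2.69, 2.57, 1.88, 8.51 and 6.36 FPKM in wild-type eggs. Libraries 4 and 5 of both genotypes were the high ones. In FG follicles kif18a had 7.13, 6.05, 5.76 and 6.11 FPKM in mutants, against 11.4, 9.45, 7.79 and 8.60 FPKM in wild type, with no overlap, and it was called with the replicate block but not without it.

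The wild-type egg libraries and wild-type FG libraries each held libraries in which kif26ab was near 0, numbers 2 and 4 in eggs and number 2 in FG follicles. No mutant library reached 0.2 FPKM.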
